A study of Mus musculus with 5 samples.

Results

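The messenger RNAs described here belong to 6 genes of the iron regulatory system. They are Fth1 and Ftl1, which encode the heavy and light chains of ferritin, Tfrc, which encodes transferrin receptor 1, Aco1 and Ireb2, which encode the iron regulatory proteins IRP1 and IRP2, and Fbxl5, which encodes the iron-sensing subunit of the ubiquitin ligase that marks these proteins for degradation. The genes were chosen for their known roles, and every transcript of them that Gencode annotates as protein-coding was taken. This gave 18 transcripts of 6 genes, among 56903 protein-coding transcripts of 21870 genes and 135276 transcripts of all types. All 18 reached 1 CPM (read counts scaled to library size with TMM factors) in at least 1 library and were tested. A further 14 transcripts of the same genes are annotated as other types and were left out. The main value of a gene is that of its protein-coding transcript with the highest mean CPM.

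The material was mESCs, mouse embryonic stem cells grown in self-renewal medium with LIF and called untreated in the labels. Cycloheximide, a blocker of elongation, was given before harvest in both groups, and RNA outside ribosomes was then digested in the lysate by RNase I (1.3 U, 45 min). Standard RIBO-seq, with 3 libraries from input lysate, collected ribosomes by centrifugation through a 30% sucrose cushion. In the 2 AHARIBO RIBO-seq libraries, nascent chains carrying the methionine analogue AHA were coupled to biotin through a click reaction and pulled down on magnetic beads, so that their ribosomes and footprints came with them. Each comparison is therefore between 2 ways of collecting ribosomes from the same kind of cell, and not between 2 iron states, and the labels name no iron donor or chelator. AHA labelling is preceded by a methionine-free interval. In another experiment of the study the word input stands for lysate with AHA in it, but for the standard libraries the labelling is not stated. If it differed, labelling and collection cannot be told apart. The labels name the libraries of each method as biological replicates.

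Cellular iron acts on these messages through the iron-responsive element (IRE), a short RNA hairpin that IRP1 and IRP2 bind when iron is scarce. An IRE near the cap of ferritin mRNA lets the bound protein block translation initiation, and IREs after the stop codon of Tfrc mRNA let it shield the message from decay. When iron is plentiful, IRP1 takes up an iron-sulfur cluster and works as a cytosolic aconitase, whereas IRP2 is recognised by FBXL5 and degraded. Dividing stem cells take up iron through transferrin receptor 1 for heme, for iron-sulfur proteins and for ribonucleotide reductase.

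The hairpins are shown because they set apart the members on which the IRPs are known to act. Each was found in the main transcript by a search of the transcript strand for the loop CAGTGN closed by 5 base pairs, G-U pairs allowed, with an unpaired C before the upper stem, and is printed as 29 nt of Gencode M21 sequence (GRCm38), 5′ to 3′, with the loop in capitals:
Fth1, 5′ UTR, chr19:9982732-9982760, plus strand: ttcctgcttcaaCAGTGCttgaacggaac
Ftl1, 5′ UTR, chr7:45459779-45459807, minus strand: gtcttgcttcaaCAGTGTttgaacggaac
Tfrc, 3′ UTR, chr16:32631219-32631247, plus strand: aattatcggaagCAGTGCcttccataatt
Tfrc, 3′ UTR, chr16:32631598-32631626, plus strand: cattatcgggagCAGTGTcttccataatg
Tfrc, 3′ UTR, chr16:32631663-32631691, plus strand: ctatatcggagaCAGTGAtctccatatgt
Tfrc, 3′ UTR, chr16:32631710-32631738, plus strand: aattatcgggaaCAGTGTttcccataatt

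The ferritin elements lay 86 nt from the annotated cap in Fth1 and 77 nt from it in Ftl1, and 109 and 147 nt before the start codon. These distances are those of M21, where Fth1 has 929 nt. Its deposited transcript has 866 nt, so the cap distance need not hold for the transcript counted. The 4 elements that this search found in Tfrc lay between 882 and 1373 nt after the stop codon. An element that departs from the pattern would be missed, so these 4 need not be the full set. The pattern was found in the 5′ UTR of the main transcript of 14 of 11600 genes (0.121%) and in the 3′ UTR of 89 of 12064 genes (0.738%). It was not found in the main transcripts of Aco1, Ireb2 and Fbxl5. Among other mRNAs listed as IRE-bearing, it was found in the 5′ UTR of Slc40a1 (ferroportin, the iron exporter) and Alas2 (erythroid heme synthesis). A match to these letters is a description of the sequence, and the counts per transcript used here do not place footprints on it.

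Libraries held 6403651 to 11150527 reads after removal of duplicates, with AHARIBO replicate 1 the deepest and standard replicate 3 the shallowest. The AHARIBO libraries differed from each other by a chi-square per degree of freedom of 2.81 over 14199 transcripts, more than any standard pair (1.204 to 2.148), and AHARIBO replicate 2 differed from standard replicate 3 by 3.08. AHARIBO replicate 1 differed from the standard libraries by 3.60 to 5.74 and AHARIBO replicate 2 by 3.08 to 3.33. A count of 3 reads corresponded to 0.262 to 0.476 CPM, which covers counting error only, and every main transcript of the 6 genes was far above it. The 8 pluripotency markers examined, Pou5f1 and Nanog among them, were all measured and summed to 1265 to 1361 CPM in standard and 1158 to 1267 CPM in AHARIBO RIBO-seq. Markers of fibroblasts, endoderm and mesoderm each summed to 2.01 to 6.39 CPM, and neural markers to 44.5 to 52.7 CPM, mostly Tubb3. No marker was at 0 in all libraries, and Sox2 and Klf4 were lower in AHARIBO (Sox2 by 0.32 on the log2 scale, edgeR adjusted p = 0.0130), calls that were lost with DESeq2 (adjusted p = 0.0721 for Sox2 and 0.0653 for Klf4).

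Of the 18 transcripts, 2 were higher in AHARIBO RIBO-seq and 0 were lower, the main transcripts of Tfrc and Ireb2. By the same rule 2.27% of the 66972 transcripts tested were called higher, 2.24% lower and 4.51% in either direction. At an unadjusted p under 0.05, 4 of the 18 were higher and 2 lower, beside 9.48% higher and 9.24% lower of all transcripts. DESeq2 called 0 of the 18, with 2 higher and 0 lower at an unadjusted p under 0.05, beside 2.86% and 3.64% of all transcripts. It gave no adjusted p for 5 of the 18 and for 71.7% of all transcripts, which could therefore not be called. It called 0.218% of all transcripts higher, 0.188% lower and 0.406% in either direction. Over the 6 main transcripts the median log2 fold change was 0.03, beside -0.0032 over the 12372 main protein-coding transcripts tested. Of the latter edgeR called 5.12%, and DESeq2 0.614%, with 0.315% higher and 0.299% lower. Standard and AHARIBO libraries did not overlap for 3 of the 6 genes, AHARIBO being above for Tfrc and Ireb2 and below for Fth1. Such separation occurred for 34.3% of main transcripts, 17.2% with AHARIBO above and 17.1% with AHARIBO below.

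**Figure D1:**
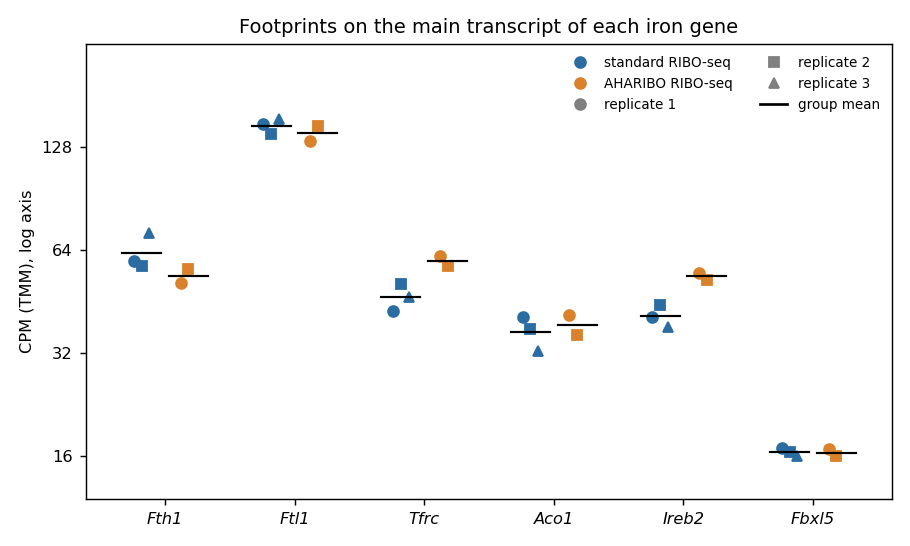
Footprints on the main transcript of each gene in CPM with TMM factors (log axis), 1 point per library and a bar at each group mean, for 3 standard and 2 AHARIBO libraries. Tfrc and Ireb2 lie higher in both AHARIBO libraries than in every standard library, Fth1 lies lower, and Ftl1, Aco1 and Fbxl5 overlap.

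Ferritin is the iron store, a hollow shell built of both chains. Its heavy chain, encoded by Fth1 and carrying the ferroxidase site, gave 59.5, 57.4 and 71.7 CPM in standard replicates 1, 2 and 3. In AHARIBO replicates 1 and 2 it gave 51.3 and 56.4 CPM. The groups did not overlap, although AHARIBO replicate 2 lay close below the lowest standard library and standard replicate 3 stood above the rest. The log2 fold change of AHARIBO over standard was -0.21 ± 0.09 (SE), with an approximate 95% interval of -0.39 to -0.04, and it did not pass the test (edgeR adjusted p = 0.159). Without standard replicate 3 it was -0.12.

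The light chain, encoded by Ftl1 and known to favour formation of the mineral core, had the most footprints of the 6. Its main transcript gave 149, 139 and 155 CPM in standard and 133 and 148 CPM in AHARIBO RIBO-seq, and the groups overlapped. The log2 fold change was -0.07 ± 0.08 (SE, interval -0.23 to 0.08, adjusted p = 0.676). Its other protein-coding transcript of 503 nt gave 61.8 ± 2.96 CPM (SD, n = 3) and 63.1 ± 4.91 CPM (SD, n = 2).

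Ftl1 counts cannot be read as those of a single locus. Of the 30-nt windows of its main transcript, 85.7% also occurred in transcripts of other genes, and within the coding sequence this share was 95.6%. The largest partner was Ftl1-ps1, which shared 81.0% of the windows and is annotated as protein-coding. Its longer transcript gave 171, 161 and 178 CPM in standard and 153 and 167 CPM in AHARIBO RIBO-seq, in the same order over the 5 libraries as Ftl1. Processed pseudogenes with part of the same sequence also held reads, Ftl2-ps at 92.1 CPM and Ftl1-ps2 at 52.6 CPM over the 5 libraries. Footprints of this length on the shared windows cannot be assigned to 1 of these genes, and how such reads were counted is not given in the sources used here. Fth1 shared 13.6% of its windows, mostly with Gm6977, and its processed pseudogenes Fth-ps2 and Fth-ps3 each had 3 to 10 reads per library. Tfrc, Aco1, Ireb2 and Fbxl5 shared 0 windows with other genes.

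Tfrc carries transferrin-bound iron into the cell by endocytosis. Its main transcript of 4890 nt gave 42.3, 51.1 and 46.6 CPM in the standard libraries. The AHARIBO libraries gave 61.4 and 57.6 CPM, so that the lowest AHARIBO library lay above the highest standard library. The AHARIBO mean of 59.5 ± 2.69 CPM (SD, n = 2) was 1.27-fold above the standard mean of 46.7 ± 4.38 CPM (SD, n = 3). The log2 fold change was 0.35 ± 0.09 (SE, interval 0.18 to 0.52, edgeR adjusted p = 0.00948). Without standard replicate 1 it was 0.28 (adjusted p = 0.165), without AHARIBO replicate 1 it was 0.30 (adjusted p = 0.173), and DESeq2 gave 0.34 (adjusted p = 0.122), none of which passed. A shorter coding transcript of 1860 nt, which overlaps the main one in sequence, gave 31.7 and 38.2 CPM on average, with a log2 fold change of 0.27 ± 0.09 (SE, adjusted p = 0.0732). The shortest, of 166 nt, stood near the 1 CPM limit at 1.12 and 1.34 CPM.

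Ireb2 encodes IRP2, the regulator whose amount falls when iron is plentiful. Its main transcript of 5770 nt gave 40.9, 44.3 and 38.2 CPM in standard and 54.9 and 52.3 CPM in AHARIBO RIBO-seq. Again both AHARIBO libraries lay above all standard libraries, the mean of 53.6 ± 1.79 CPM (SD, n = 2) being 1.30-fold above that of 41.1 ± 3.02 CPM (SD, n = 3). The log2 fold change was 0.38 ± 0.09 (SE, interval 0.21 to 0.54, edgeR adjusted p = 0.00503). Without AHARIBO replicate 1 it was 0.34 (adjusted p = 0.104), without standard replicate 1 it was 0.37 (adjusted p = 0.0547), and DESeq2 gave 0.37 (adjusted p = 0.0815). A second coding transcript of 674 nt within the same gene gave 6.83 and 8.99 CPM on average (log2 fold change 0.40 ± 0.15 SE, adjusted p = 0.120).

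Aco1 encodes IRP1, the regulator that switches between RNA binding and aconitase activity. Its only protein-coding transcript gave 40.7, 37.5 and 32.5 CPM in standard and 41.4 and 36.1 CPM in AHARIBO RIBO-seq. The groups overlapped, and the log2 fold change was 0.06 ± 0.09 (SE, interval -0.12 to 0.24, adjusted p = 0.782). Its sign depended on the libraries used, being -0.04 without AHARIBO replicate 1 and -0.01 without standard replicate 3. The IRP1 and IRP2 proteins predicted from these transcripts were identical at 62.4% of 885 aligned residues, but the transcripts shared no window of 30 nt, so reads of Aco1 and Ireb2 could be told apart. The ferritin chains were identical at 53.1% of 175 aligned residues and likewise shared no window.

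Fbxl5 encodes an F-box protein whose hemerythrin-like domain binds iron and oxygen, and it is stable when both are present. Its main transcript gave 16.92, 16.45 and 16.02 CPM in standard and 16.80 and 15.98 CPM in AHARIBO RIBO-seq. These were the closest values of the 6 genes, with a log2 fold change of -0.01 ± 0.11 (SE, interval -0.23 to 0.21, adjusted p = 0.983). The 9 coding transcripts of Fbxl5 had mean values of 6.09 to 16.5 CPM in standard and 4.68 to 16.4 CPM in AHARIBO RIBO-seq. Their log2 fold changes ran from -0.38 to 0.23 and none passed the test. Nearly all windows of the main transcript occurred in several of these transcripts, only 0.247% being its own, so the 9 values are not independent measurements.

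Levels of different genes were compared per kb of transcript. Those of Ftl1 are not those of a single locus, given its shared windows. Ftl1 stood at 153 ± 8.20 CPM per kb (SD, n = 3) in standard RIBO-seq and Fth1 at 72.6 ± 8.93, a 2.10-fold difference, and every library of Ftl1 lay above every library of Fth1. Fth1 lay 7.54-fold above the next gene, Aco1, at 9.63 ± 1.07 CPM per kb. Aco1 and Tfrc (9.55 ± 0.896) did not differ beyond their spread. Ireb2 at 7.13 ± 0.524 and Fbxl5 at 5.76 ± 0.156 CPM per kb followed, each below its neighbour in every standard library.

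In AHARIBO RIBO-seq Ftl1 (145 ± 10.9 CPM per kb, SD, n = 2) and Fth1 (62.2 ± 4.21) again led, 2.33-fold apart. Tfrc came next at 12.2 ± 0.550, above Aco1 at 10.1 ± 0.966 in both libraries. Aco1 and Ireb2 (9.29 ± 0.310) overlapped, and Fbxl5 was lowest at 5.73 ± 0.203 CPM per kb. Per kb of coding sequence the order was Ftl1, Fth1, Tfrc, Ireb2, Aco1 and Fbxl5 in both methods, with Ireb2 and Aco1 overlapping in standard RIBO-seq. Set against the main transcripts of the 12372 genes tested, Ftl1 lay above 98.9% and Fth1 above 97.4% of them per kb of transcript. Tfrc lay above 77.7%, Aco1 above 76.3%, Ireb2 above 72.0% and Fbxl5 above 64.1%. These levels come from footprints alone, so the amount of an mRNA and the number of ribosomes on each copy cannot be told apart.

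**Figure D2:**
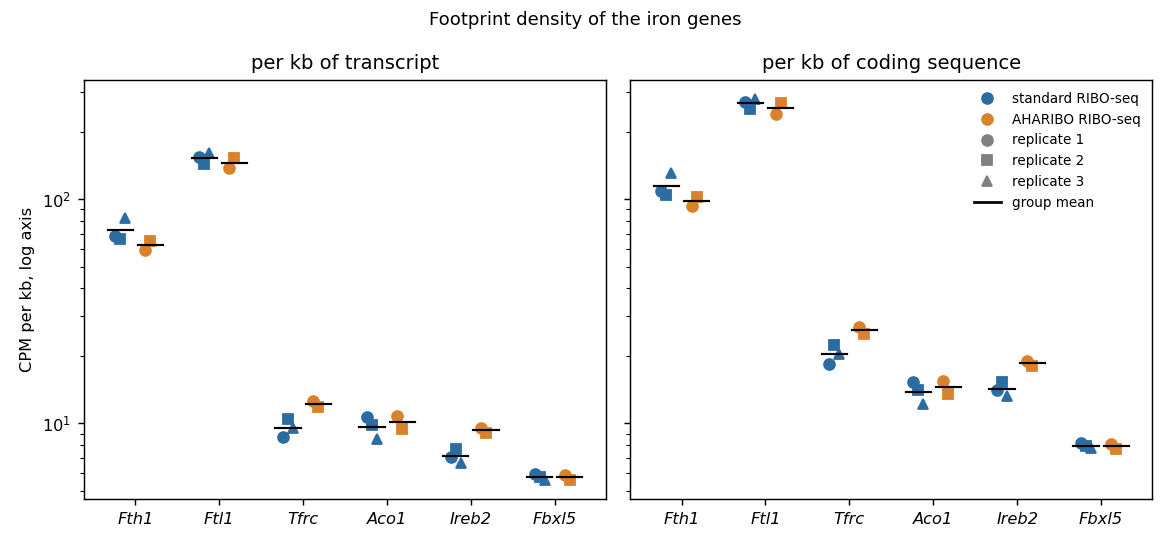
Footprint density of each gene as CPM per kb of transcript (left) and per kb of coding sequence (right), on a log axis, with 1 point per library and a bar at each group mean. Both ferritin genes stand above the other 4 on either scale, and Aco1 changes places with Ireb2 between the scales.

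Ratios between members were taken within each library, so that they do not depend on its scaling. The ferritin ratio, Fth1 to Ftl1 per kb, was 0.446, 0.461 and 0.517 in standard and 0.431 and 0.426 in AHARIBO RIBO-seq. Since Ftl1 counts are not those of a single locus, it is not a measure of heavy to light chain alone. It was lower in both AHARIBO libraries, by 0.14 on the log2 scale (exact two-sided permutation p = 0.20, adjusted p = 0.20 over 3 ratios). The uptake to storage ratio, Tfrc to Fth1, was 0.126, 0.158 and 0.115 in standard and 0.212 and 0.181 in AHARIBO RIBO-seq. It was 1.49-fold higher in AHARIBO (p = 0.20, adjusted p = 0.20, exact permutation). The ratio of the IRPs, Ireb2 to Aco1, was 0.668, 0.783 and 0.781 in standard and 0.880 and 0.961 in AHARIBO RIBO-seq, 1.24-fold higher (p = 0.10, adjusted p = 0.20, exact permutation). None of the 3 ratios passed the test, since 2 against 3 libraries make 10 splits and cannot give a p below 0.1. Their values did not overlap between the methods, which single main transcripts also showed in 34.3% of cases, and the share among other pairs of genes was not computed.

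The removal of duplicate reads touched the members unequally. The sources used here mention no molecular identifiers, and without them independent footprints with the same ends are counted as copies. Duplicates made up 47.4% to 57.9% of the reads on Ftl1 and 33.6% to 39.7% of those on Fth1, both short and heavily covered. On Tfrc they made up 14.4% to 18.7%, on Aco1 11.2% to 15.99%, on Ireb2 10.5% to 14.8% and on Fbxl5 8.13% to 16.6%. The median main protein-coding transcript lost 10.2%, whereas of all reads on main protein-coding transcripts 41.1% to 43.7% were lost, more than on Fth1 and less than on Ftl1. With duplicates kept, Ftl1 rose to 170 CPM per kb in standard RIBO-seq and its log2 fold change turned from -0.07 to 0.06, neither passing the test. Under this setting Ireb2 passed (0.38, adjusted p = 0.0388) and Tfrc did not (0.36, adjusted p = 0.0506).

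Fold changes followed coding length over the main protein-coding transcripts tested. In 5 equal bins of the main transcripts by coding length, the median log2 fold change went from -0.10 in the shortest to 0.10 in the longest. Calls higher in AHARIBO numbered 16 in the shortest bin and 180 in the longest, and calls lower numbered 187 and 1. The ferritin genes fall in the shortest bin, with coding sequences of 549 nt (Fth1) and 552 nt (Ftl1), whereas Tfrc (2292 nt) and Fbxl5 (2073 nt) fall in bin 4 and Aco1 (2670 nt) and Ireb2 (2892 nt) in the longest. Within its own bin, Tfrc lay above 89.3% and Ireb2 above 87.6% of transcripts, while Aco1, Fbxl5 and Ftl1 lay between 41.5% and 55.6% and Fth1 at 30.6%.

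A fit that removed a smooth trend with coding length from each library, chosen after the data were seen, left both calls in place. It tested only the 34239 protein-coding transcripts with a coding length and called 1.75% of them higher and 2.34% lower. Tfrc was then 0.27 (adjusted p = 0.0239) and Ireb2 0.27 (adjusted p = 0.0220), and Fth1 was -0.18 (adjusted p = 0.206). AHA enters in place of methionine, and the number of methionine codons differed among the members. Ftl1 had 4 in 183 codons, the first after the start at codon 97, and Fth1 had 6 in 182. Tfrc had 18 in 763, Ireb2 17 in 963, Aco1 21 in 889 and Fbxl5 16 in 690 codons. Ireb2 thus had 1.77 per 100 codons and Aco1 2.36, beside a median of 2.13 over all main transcripts. The part of methionine content in the fold changes was not tested.

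**Figure D3:**
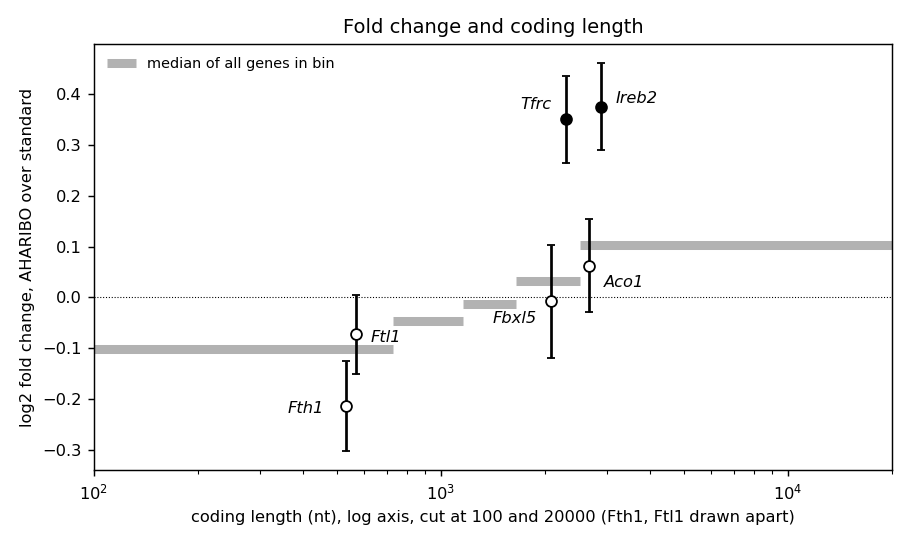
Log2 fold change of AHARIBO over standard RIBO-seq with its SE for the 6 genes (filled, adjusted p under 0.05) against coding length in nt (log axis), with the median of all main transcripts in each of 5 coding-length bins as grey bars. The grey bars climb from -0.10 to 0.10, and Tfrc and Ireb2 lie above the bar of their own bin.

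Outside the 6 genes, 68 further genes of iron biology were examined in 7 lists, of which 60 were tested. In AHARIBO RIBO-seq 1 was higher, 7 were lower and 52 did not pass, beside 2.59% higher and 2.53% lower among all main protein-coding transcripts. The median log2 fold change of the 60 was -0.07, beside -0.0032 over all main protein-coding transcripts. DESeq2 called 0 higher and 1 lower, with 27 of the 60 given no adjusted p. Without AHARIBO replicate 1, 0 were higher and 1 (Slc25a28) was lower, and without standard replicate 1, 0 were higher and 1 (Pcbp1) was lower. Fdxr and Alad passed in none of the 5 fits that left out 1 library.

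Of 4 other mRNAs listed from background knowledge as carrying a 5′ IRE, 2 were tested and neither passed. Epas1, the hypoxia factor HIF-2α, gave 40.2 CPM in standard and 40.8 CPM in AHARIBO RIBO-seq on average, and the loop search found 0 elements in the transcript used. Slc40a1 and Alas2 were below the filter at 0 to 0.699 CPM in any library. Of 4 mRNAs listed with a 3′ IRE, none of which held a match to the loop search in the transcript used, the kinase gene Cdc42bpa was the only one to pass, with 2.91, 3.31 and 0.952 CPM in standard and 4.29 and 4.69 CPM in AHARIBO RIBO-seq (log2 fold change 0.81 ± 0.25 SE, adjusted p = 0.0463). Standard replicate 3 was far below the other standard libraries, and without it the fold change was 0.52 (adjusted p = 0.232). The call was also lost without standard replicate 1 (0.94, adjusted p = 0.0798), without AHARIBO replicate 1 (0.88, adjusted p = 0.138), without AHARIBO replicate 2 (0.75, adjusted p = 0.107) and with the coding-length trend removed (0.65, adjusted p = 0.121). Slc11a2, which encodes the iron transporter DMT1, gave 10.7 and 9.19 CPM, and the profilin gene Pfn2 gave 3.43 and 2.91 CPM.

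The partners of Fbxl5 in its ubiquitin ligase were Skp1a, Rbx1 and Cul1, listed with Herc2, itself a ubiquitin ligase that acts on FBXL5. None of the 4 passed the test. Skp1a gave 46.8 and 48.0 CPM in standard and AHARIBO RIBO-seq, Rbx1 42.9 and 37.0 CPM, and Cul1 34.9 and 40.1 CPM. Per kb of transcript Skp1a stood at 32.8, Rbx1 at 24.2 and Cul1 at 11.7 CPM per kb over the 5 libraries, beside 5.75 for Fbxl5.

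Iron transport and handling had 14 of 20 genes tested, 0 higher, 2 lower and a median log2 fold change of -0.14. Pcbp1, an RNA-binding protein that also delivers iron to ferritin, fell from 164, 165 and 172 CPM to 125 and 138 CPM (log2 fold change -0.35 ± 0.08 SE, adjusted p = 0.00462), and was also called by DESeq2 (adjusted p = 0.0179). Its call was lost with duplicate reads kept (adjusted p = 0.0511), with transcripts summed per gene (adjusted p = 0.0997) and without AHARIBO replicate 1 (-0.27, adjusted p = 0.175). Its relative Pcbp2 gave 184 and 165 CPM (log2 fold change -0.15) and did not pass. Slc25a28, a mitochondrial iron importer, fell from 13.1 to 9.14 CPM on average (log2 fold change -0.53 ± 0.14 SE, adjusted p = 0.0187). With duplicate reads kept (edgeR adjusted p = 0.146) and without standard replicate 1 (edgeR adjusted p = 0.243) it was no longer called. Hmox1, which breaks down heme and frees its iron, gave 40.91 and 37.98 CPM.

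Mitochondrial iron-sulfur cluster assembly had all 17 genes tested, with 3 lower, 0 higher and a median of -0.10. Glrx5, a glutaredoxin that passes on clusters, fell from 19.6, 18.0 and 17.3 CPM to 12.7 and 13.1 CPM (log2 fold change -0.51 ± 0.12 SE, adjusted p = 0.00500). Iba57, a late-acting assembly factor, fell by 0.62 on the log2 scale (adjusted p = 0.0417), and Fdxr, which passes electrons to ferredoxin, fell by 0.38 (adjusted p = 0.0461). The call of Glrx5 was lost with DESeq2 (adjusted p = 0.112) and without standard replicate 1 (edgeR adjusted p = 0.0626). That of Iba57 was lost with duplicate reads kept (edgeR adjusted p = 0.0877) and without standard replicate 1 (edgeR adjusted p = 0.214). The chaperone gene Hspa9 was the most abundant, at 219 and 221 CPM, followed per kb by Nfu1 (28.9 and 27.0 CPM) and the scaffold gene Iscu (15.9 CPM in both).

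Cytosolic iron-sulfur assembly, which supplies the cluster of IRP1, had 1 of 9 genes lower and 0 higher, with a median of -0.02. Nubp2, part of its scaffold, fell from 28.8 to 22.9 CPM on average (log2 fold change -0.34 ± 0.10 SE, adjusted p = 0.0326). It did not pass with DESeq2 (adjusted p = 0.239), with duplicate reads kept (edgeR adjusted p = 0.195) or without standard replicate 1 (edgeR adjusted p = 0.105). Its partner Nubp1 gave 33.0 and 30.3 CPM, and Ciapin1, which passes electrons to the pathway, 47.1 and 47.3 CPM. Heme synthesis and export had 1 of 10 genes lower and 0 higher, with a median of -0.10. Alad, an early enzyme of heme synthesis, fell from 16.5 to 12.4 CPM on average (log2 fold change -0.41 ± 0.12 SE, adjusted p = 0.0319). Urod, a later enzyme of the pathway, gave 31.4 and 32.6 CPM. The 7 genes that fell have coding sequences of 459 to 1485 nt, and all 7 passed in the fit with the coding-length trend removed. That fit called 8 of the 60 genes lower, beside 2.34% of the 34239 transcripts it tested. The eighth was Cpox, another enzyme of heme synthesis, chosen after its value was seen (edgeR adjusted p = 0.0198).

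**Figure D4:**
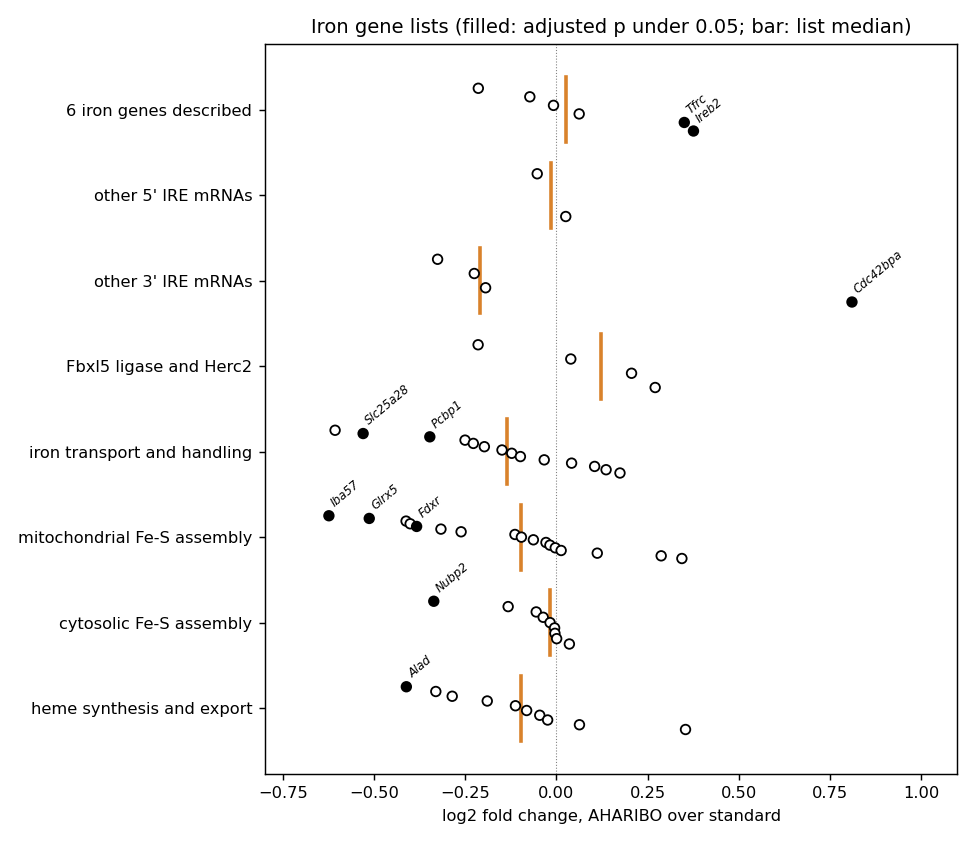
Log2 fold change of AHARIBO over standard RIBO-seq for each tested gene of the iron lists, 1 point per gene (filled, adjusted p under 0.05) with a bar at each list's median. Filled points lie to the right only for Tfrc, Ireb2 and Cdc42bpa, and 7 filled points lie to the left.

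The genes whose profile over the 5 libraries was most like that of a member are given as a description, from 5509 protein-coding genes with at least 10 CPM in every library and by the root mean square (RMS) difference of mean-centred log2 CPM. For Fth1 they were Rpl41 (RMS difference 0.0161) and Gm8797 (0.0239). For Ftl1 they were Rasgrp2 (0.00683) and Ftl1-ps1 (0.0109), the latter being the gene with which it shares most of its windows. For Tfrc they were Ctsc (0.0269) and Atp13a3 (0.0348), for Aco1 Tram1 (0.0209) and Samhd1 (0.0227), for Ireb2 Pds5b (0.0111) and Pou2f1 (0.0246), and for Fbxl5 Rabl6 (0.00465) and Wdr1 (0.00863). With 5 libraries many profiles lie close together.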

How the data were processed

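Libraries were grouped by their labels, 3 made by standard and 2 by AHARIBO RIBO-seq. Raw counts were deposited by the authors as reads per transcript, with and without duplicate reads, beside the transcript length. Per the methods, reads of 50 bp from fragments of 25 to 35 nt were trimmed (Trimmomatic 0.36), freed of rRNA and tRNA, aligned to Gencode M17 transcripts (STAR, default settings) and freed of antisense and duplicate reads. The counting of reads that fit several transcripts is not given in the sources used here, so transcripts that share sequence are not independent. Counts without duplicates were used, and 0 columns of per-sample values were unused.

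CPM values with TMM factors over all transcripts were computed in edgeR 4.0.16 (R 4.3.3), and transcripts with 1 CPM in at least 1 library were kept. edgeR's quasi-likelihood test compared the methods, with Benjamini-Hochberg adjustment over all 66972 transcripts and a threshold of 0.05. SE values were derived approximately from the F statistic. DESeq2 1.42.0 served as a further test. The other alternatives covered normalization, filter, duplicates, replicate block, 1 transcript or the sum per gene, coding length and leaving out each library. Precision follows from depths of 6403651 to 11150527 reads per library.

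Coordinates, coding lengths and gene types came from Gencode M21 (GRCm38). Identifiers without their version matched it for 99.8% of transcripts. Fth1 is 866 nt in the deposited table and 929 nt in M21. Fam96a, Fam96b and Tf were matched as Ciao2a, Ciao2b and Trf. Alignments of the predicted proteins used Biopython 1.88. The genes and lists were chosen with earlier results of these data known. Named are all 6 genes and, of each other list, the 3 genes with the highest CPM per kb and every gene with an adjusted p under 0.05, apart from some that are not reported here. Herc2, Slc40a1, Alas2 and some ferritin relatives are named for their role or sequence and fall outside that rule.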

Additional observations from a re-analysis of the deposited data

How the results depend on the processing

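Over the 15 alternatives run, Fth1 stayed below 0 (-0.28 to -0.12 on the log2 scale) and never passed, and Tfrc (0.27 to 0.43) and Ireb2 (0.27 to 0.43) stayed above 0. The calls of Tfrc and Ireb2 were lost with DESeq2 (0.34 and 0.37) and with the protein-coding transcripts summed per gene (0.32, adjusted p = 0.157, and 0.39, adjusted p = 0.103), a fit that called 28 of 14504 genes. Tfrc was also lost with duplicate reads kept (0.36). Leaving out 1 library gave 0.28 to 0.43 for Tfrc and 0.33 to 0.43 for Ireb2, and both were lost without standard replicate 1 and without AHARIBO replicate 1. The replicate block, which drops standard replicate 3 in effect since it has no AHARIBO partner, gave 0.33 for Ireb2 (adjusted p = 0.0508), 0.35 for Tfrc (adjusted p = 0.0353) and -0.013 for Aco1, and 1792 calls. The calls of Pcbp1 (adjusted p = 0.0979), Fdxr (0.0906), Alad (0.0701) and Cdc42bpa (0.275) were also lost under the block. On the log2 scale, the difference between replicates 1 and 2 of standard correlated with that of AHARIBO at r = -0.03 over 18576 transcripts. Standard replicate 3 did not enter, and the main fit used no block, since the methods use none. The cause of these lost calls was not tested.

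Members near 0 changed sign. Ftl1 was 0.058 with duplicates kept and -0.15 to 0.0028 when 1 library was left out. Aco1 was -0.043 to 0.16 when 1 library was left out and -0.033 with the coding-length offset. Fbxl5 was -0.047 to 0.029 when 1 library was left out, 0.027 by library size without TMM factors, 0.019 with 1 transcript per gene and 0.010 with transcripts summed. Transcripts called, 3021 in all, were 272 with DESeq2, 940 with 1 transcript per gene (23258 tested against 66972) and 510 to 3829 when 1 library was left out. Without TMM factors 3026 were called, 1978 higher and 1048 lower, against 1520 and 1501. Iron list genes higher (1) were 0 with DESeq2, with duplicates kept and with the coding-length offset, and 0 to 2 when 1 library was left out. Iron list genes lower (7) were 1 with DESeq2, 2 with duplicates kept, 8 with the coding-length offset and 1 to 5 when 1 standard library was left out. All 7 calls and that of Cdc42bpa were lost with protein-coding transcripts summed per gene (edgeR adjusted p = 0.0713 to 0.322). Without TMM factors and with 1 transcript per gene, those of Fdxr, Alad, Nubp2 and Iba57 were lost (edgeR adjusted p = 0.0595 to 0.102).

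Standard levels moved by more than 1 SD per kb of coding sequence, to 268 CPM per kb for Ftl1, 115 for Fth1, 20.4 for Tfrc, 14.2 for Ireb2, 13.8 for Aco1 and 7.94 for Fbxl5. With duplicates kept they were 170 for Ftl1, 6.26 for Tfrc, 6.07 for Aco1, 4.51 for Ireb2 and 3.71 for Fbxl5. The 3 ratios kept the direction of their difference between methods under 7 alternatives. The scale per kb of coding sequence changes the ratios but not that difference. For Fth1 to Ftl1 the difference (-0.14 on the log2 scale) was -0.32 with duplicates kept and -0.08 without standard replicate 3.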

Other observations

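The testis-type ferritin heavy chain genes of the X chromosome, Fthl17b to Fthl17f, held reads in every library. Fthl17b gave 2.58, 3.31 and 2.06 CPM in standard and 3.15 and 3.30 CPM in AHARIBO RIBO-seq, and Fthl17c 3.14, 3.53 and 2.54 CPM and 3.15 and 3.50 CPM. Fthl17d, Fthl17e and Fthl17f had mean values of 1.23, 1.26 and 2.06 CPM. Fthl17d and Fthl17e had equal counts in 4 of 5 libraries, and sequence shared within the family was not examined. None of the 5 passed the test between methods (edgeR adjusted p = 0.564 to 0.981), and Fthl17a was at 0 to 4 reads. Ftmt, the mitochondrial ferritin, was below the filter.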
